A study of Homo sapiens with 24 samples.

Results

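The 10 genes described here are the Notch ligands DLL1, DLL3, DLL4, JAG1 and JAG2, the receptors NOTCH1, NOTCH2 and NOTCH3, and the transcription factors HEY1 and HES6. They were picked by symbol as members of the Notch pathway, out of 60605 genes with a read count in each library, and each symbol matched 1 gene. RNA was measured 72 h after transfection in SBC-3, a human cell line that the labels call small cell lung cancer and give as wild type. The groups that received small interfering RNAs (siRNAs) were siSFPQ-2 and siSFPQ-3, directed at SFPQ, siNONO-3 and siNONO-4, directed at NONO, and the control siCtrl. The groups that received antisense oligonucleotides (ASOs) were ASO-NEAT1-1047 and ASO-NEAT1-1473, directed at the long noncoding RNA NEAT1, and the control ASO-Ctrl. Each of the 8 groups held 3 libraries, and all cells were transfected at 10 nM. SFPQ and NONO are RNA-binding proteins that gather with NEAT1 in nuclear bodies called paraspeckles. Whether replicate libraries stem from separate cultures is not stated, so p-values cover the spread between these libraries, which may be technical.

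Notch receptors sit in the membrane and are activated by ligands on neighbouring cells. Ligand binding lets proteases cut the receptor, and the freed intracellular part joins the DNA-binding protein RBPJ and co-activators to switch on genes of the HES and HEY families. DLL3 differs from the other ligands in that it does not activate receptors and dampens signalling within its own cell. In neuroendocrine small cell lung cancer, DLL3 is known as a surface antigen for therapy, whereas Notch activity is known to push cells away from the neuroendocrine state.

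The defining neuroendocrine markers were largely missing from these libraries. NCAM1 had 3 reads over all 24 libraries and CHGA had 23, while INSM1 and GRP had 0. NEUROD1, a neuroendocrine transcription factor, had a median of 4.64 CPM, and the synaptic vesicle protein gene SYP a median of 16.7 CPM. YAP1 and REST, which mark non-neuroendocrine cells, had medians of 359 and 77.1 CPM. CPM is the count of a gene per library total, in the usual fixed unit, after scaling with TMM factors, which correct for differences in composition.

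Total counts ran from 4243196 to 14886353 per library. SFPQ and NONO were low in the libraries labelled with their siRNAs, while NEAT1 was not called in those labelled with its ASOs. SFPQ averaged 207 ± 47.2 and 222 ± 27.2 CPM in siSFPQ-2 and siSFPQ-3, against 1221 ± 40.1 CPM in siCtrl (SD, n = 3 each). NONO averaged 69.1 ± 9.28 and 69.9 ± 5.05 CPM in siNONO-3 and siNONO-4, against 398 ± 14.9 CPM in siCtrl. Exons of NONO share 187 bases with ZMYM3 on the other strand, which had 21144 reads in all against 90479 for NONO. NEAT1 averaged 297 ± 46.9 and 206 ± 25.4 CPM in the libraries labelled ASO-NEAT1-1047 and ASO-NEAT1-1473, against 297 ± 85.6 CPM in ASO-Ctrl, and its log2 fold change of -0.26 was not called (SE 0.20, edgeR adjusted p = 1). A gene is called here when the Benjamini-Hochberg adjusted p of edgeR's quasi-likelihood test over all 15869 genes tested is under 0.05, and the verbs rose and fell are kept for such genes.

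Per length, NOTCH2 was the most abundant of the 10 transcripts in siCtrl and DLL4 the least. In TPM, a level scaled to library size and divided by the exon length of each gene in the deposited annotation, siCtrl averaged 38.7 for NOTCH2 and 29.5 for JAG1. HEY1 followed at 21.6 TPM, JAG2 at 14.8 TPM and NOTCH1 at 11.7 TPM. NOTCH3 stood at 4.58 TPM and HES6 at 3.59 TPM. The Delta-type ligands were scarce, with 1.86 TPM for DLL3, 1.17 TPM for DLL1 and 0.331 TPM for DLL4. DLL3 was thus read from 10 to 22 reads in a siCtrl library, and DLL4 from 4 to 6, so counting error alone is large for both. All 10 genes passed the filter on low counts, but DLL4 did so through 5 siSFPQ libraries alone, the group in which it was high. Its call, and its lack of overlap with other libraries, therefore lend no support to any count of members below.

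**Figure D1:**
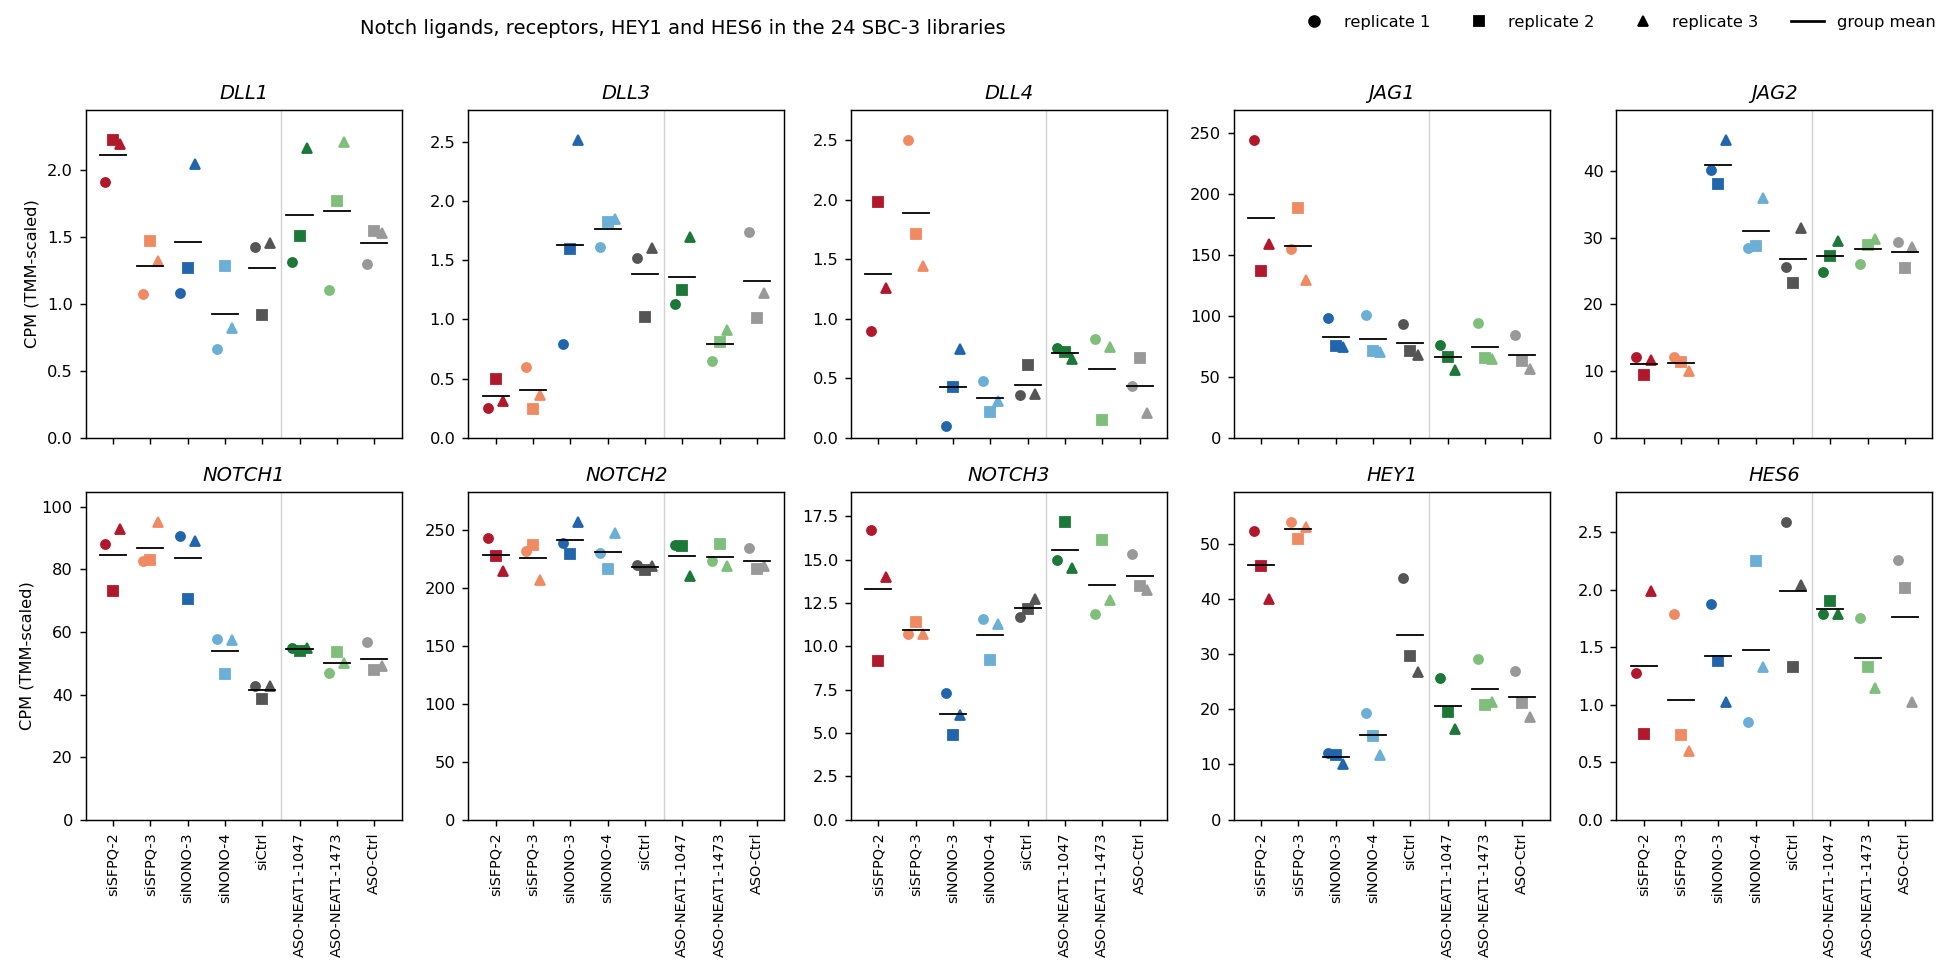
TMM-scaled CPM (vertical axes, linear, starting at 0) of the 10 genes in each of the 24 libraries; marker shapes give the replicate number, horizontal bars the group means, and the grey line parts the siRNA from the ASO groups. JAG2 lies between 9.4 and 12.1 CPM in the 6 siSFPQ libraries, under its 23.3 to 31.4 CPM in siCtrl, and HEY1 lies between 10.1 and 19.3 CPM in the 6 siNONO libraries, under its 26.8 to 43.7 CPM in siCtrl.

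After SFPQ knockdown the ligands moved in different directions: JAG1 and DLL4 rose, JAG2 and DLL3 fell, and DLL1 was not called. Among the receptors NOTCH1 rose, and NOTCH2 and NOTCH3 were not called. HEY1 rose. In all, 4 of the 10 genes were called higher and 2 lower, while 70.4% of all genes tested were called in this comparison, 34.7% higher and 35.8% lower. The 4 include DLL4, which passed the filter through siSFPQ libraries alone and lends no support to this count. Each siRNA alone called the same 6 genes in the same directions, beside 64.9% of all genes for siSFPQ-2 and 67.0% for the other siRNA. The members' median log2 fold change was 0.21, beside -0.02 over all genes tested.

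JAG1 (chr20:10637684-10673999, minus strand) and JAG2 (chr14:105140982-105168824, minus strand) encode the Jagged ligands, which activate Notch receptors on adjacent cells. Their promoters are shown with that of NOTCH1 (chr9:136494433-136546048, minus strand) because these 3 genes had the most reads among the called ligands and receptors and went opposite ways. The sequences are RefSeq's for GRCh38.p14, from 250 bases before to 50 bases after RefSeq's start of the gene, on the gene's strand. For JAG2, NOTCH2 and HES6 that start is not the one in the deposited gene coordinates. The windows of NOTCH2 (chr1:120069613-120069912) and HES6 (chr2:238239989-238240288), searched below, lie inside the deposited genes. Capitals mark the GC box GGGCGG or its reverse complement. The printed sequences span chr20:10673950-10674249, chr14:105168727-105169026 and chr9:136545999-136546298, each on the minus strand.
JAG1: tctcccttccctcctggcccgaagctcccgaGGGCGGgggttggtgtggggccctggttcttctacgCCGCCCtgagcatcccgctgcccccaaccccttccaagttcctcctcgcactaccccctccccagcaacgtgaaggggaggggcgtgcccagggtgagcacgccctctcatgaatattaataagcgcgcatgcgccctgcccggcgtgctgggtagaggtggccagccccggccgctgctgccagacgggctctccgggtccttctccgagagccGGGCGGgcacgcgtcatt
JAG2: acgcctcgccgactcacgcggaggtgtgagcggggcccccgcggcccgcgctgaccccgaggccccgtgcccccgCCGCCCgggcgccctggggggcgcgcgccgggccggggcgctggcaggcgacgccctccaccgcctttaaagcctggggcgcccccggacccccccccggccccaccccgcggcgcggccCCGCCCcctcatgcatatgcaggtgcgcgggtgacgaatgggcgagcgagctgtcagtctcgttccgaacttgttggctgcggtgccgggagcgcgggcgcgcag
NOTCH1: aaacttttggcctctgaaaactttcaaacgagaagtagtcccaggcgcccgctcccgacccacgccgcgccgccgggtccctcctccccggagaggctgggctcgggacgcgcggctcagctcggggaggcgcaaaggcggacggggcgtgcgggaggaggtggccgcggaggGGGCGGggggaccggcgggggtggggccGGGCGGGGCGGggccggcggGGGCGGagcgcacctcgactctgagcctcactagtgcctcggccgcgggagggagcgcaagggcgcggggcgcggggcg
Promoters were searched for 7 of the 10 genes. Those of DLL1, DLL3 and HEY1 were not among them, so the motif counts do not cover these genes. The hexamer TGGGAA, the core of the RBPJ site, was searched on both strands and stood in none of the 7, while 24% of 35116 promoters of the same length hold it. CACGTG, an E-box bound by HES and HEY factors, and GGAATG, the core of the TEAD site, were absent from the 7 as well and present in 7.26% and 14% of all promoters. CAGCTG, an E-box of proneural factors, stood once in the HES6 promoter and in 17.9% of all promoters. GGGCGG stood in all 7 and in 45.0% of all promoters, at 3 places in JAG1, 2 in JAG2 and 4 in NOTCH1; the pair at -49 and -44 in NOTCH1 overlap. The GC content was 68.7% for JAG1, 79.7% for JAG2 and 77.0% for NOTCH1, with a median of 58.7% over all promoters. Absence of these letters from the 300 bases says nothing about binding elsewhere.

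JAG1 had 245, 137 and 159 CPM in siSFPQ-2 and 155, 189 and 129.9 CPM in siSFPQ-3, against 93.9, 71.0 and 67.9 CPM in siCtrl. All 6 siSFPQ libraries were above all siCtrl libraries, and the groups did not overlap. JAG1 rose by 1.13 on the log2 scale (SE 0.21, edgeR adjusted p = 0.000122), by 1.23 with siSFPQ-2 and by 1.03 with siSFPQ-3. Annotated exons of JAG1 share 306 bases with an unnamed gene on the other strand, which had 13 reads in all 24 libraries against 23172 for JAG1.

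JAG2 had 12.1, 9.40 and 11.6 CPM in siSFPQ-2 and 12.1, 11.4 and 9.97 CPM in siSFPQ-3, against 25.7, 23.3 and 31.4 CPM in siCtrl. The highest siSFPQ library was far below the lowest siCtrl library. JAG2 fell by 1.26 (SE 0.11, edgeR adjusted p = 9.77e-11), by 1.26 and 1.27 with the single siRNAs, the most even pair of changes among the 6 called genes. In the order of the 8 group means, both siSFPQ groups stood lowest and apart from the other 6 groups.

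DLL3 (chr19:39498895-39508481, plus strand) had 0.255, 0.495 and 0.314 CPM in siSFPQ-2 and 0.595, 0.245 and 0.361 CPM in siSFPQ-3, against 1.52, 1.02 and 1.6 CPM in siCtrl. These levels rest on 17 reads over the 6 siSFPQ libraries, 2 to 5 a library, and on 49 reads over the 3 siCtrl libraries. The groups did not overlap. DLL3 fell by 1.91 (SE 0.40, edgeR adjusted p = 0.000102), by 2.05 with siSFPQ-2 and by 1.77 with siSFPQ-3. The size of the fall is loosely set at this depth, with a 95% interval of -2.73 to -1.09.

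DLL4 (chr15:40929340-40939073, plus strand), an activating ligand best known from blood vessel sprouting, had 0.893, 1.98 and 1.26 CPM in siSFPQ-2 and 2.50, 1.71 and 1.44 CPM in siSFPQ-3, against 0.357, 0.613 and 0.364 CPM in siCtrl. It rose by 1.82 (SE 0.47, edgeR adjusted p = 0.00107), on 74 reads in the 6 siSFPQ libraries and 15 in the 3 siCtrl libraries. The groups did not overlap. With siSFPQ-2 alone, the log2 fold change of 1.54 (edgeR adjusted p = 0.016) was not called once siCtrl replicate 1 (1.41, edgeR adjusted p = 0.0504), siCtrl replicate 3 (1.39, edgeR adjusted p = 0.0567) or siSFPQ-2 replicate 2 (1.28, edgeR adjusted p = 0.0662) was left out. The summed level of 6 endothelial markers was 1.4 to 1.57 CPM in siSFPQ-2 and 2.02 to 2.64 CPM in siSFPQ-3, against 0.291 to 0.357 CPM in siCtrl. Of these markers PECAM1 alone passed the filter, through 3 siSFPQ libraries and no other. It rose by 2.17 (edgeR adjusted p = 0.00219), by 2.84 with siSFPQ-3, and was not called with siSFPQ-2 alone (1.49, edgeR adjusted p = 0.0792). ERG had 0 reads in all siSFPQ libraries, VWF had 1 read in each siSFPQ group, and 5 had a read in each siSFPQ group, against 4 in siCtrl. The summed level of 5 leukocyte markers was 0.733 to 2.3 CPM in siSFPQ-2 and 0.601 to 1.9 CPM in siSFPQ-3, against 0.0 to 0.446 CPM in siCtrl. The part of these markers in the DLL4 result was not tested. In bulk RNA, more cells that carry a transcript and more of it per cell cannot be told apart, for any gene here.

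DLL1 (chr6:170282206-170306565, minus strand), a further activating ligand, had 1.91, 2.23 and 2.20 CPM in siSFPQ-2 and 1.07, 1.47 and 1.32 CPM in siSFPQ-3, against 1.43, 0.919 and 1.45 CPM in siCtrl. The siSFPQ-2 libraries were the highest and the siSFPQ-3 libraries overlapped those of siCtrl; the log2 fold change of 0.36 was not called (SE 0.30, edgeR adjusted p = 0.286). DLL1 is uncertain in any case, because its exons share 370 bases with FAM120B on the other strand, which had 18094 reads in all against 372 for DLL1, and the strand setting of the count is not given in the sources used here.

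As a share of the summed TPM of the 5 ligands, JAG1 made up 87.2 ± 3.16% in siSFPQ-2 and 86.4 ± 1.9% in siSFPQ-3, against 61.7 ± 6.03% in siCtrl (SD, n = 3 each). JAG2 made up 8.03 ± 1.34% and 9.0 ± 1.07% in siSFPQ-2 and siSFPQ-3, against 31.3 ± 5.29% in siCtrl. DLL3 made up 0.675 ± 0.38% and 0.804 ± 0.378% in siSFPQ-2 and siSFPQ-3, against 3.89 ± 0.681% in siCtrl. The ratio of JAG1 to JAG2 per length was 9.44 to 13.9 in siSFPQ-2 and 8.77 to 11.4 in siSFPQ-3, against 1.49 to 2.51 in siCtrl. In the other 5 groups together it lay between 1.15 and 2.48, the same order as in siCtrl. The summed ligand level was 74.2 ± 24.4 and 67.2 ± 12.0 TPM in siSFPQ-2 and siSFPQ-3, against 47.7 ± 5.62 TPM in siCtrl. These shares and ratios restate the levels above and were not tested on their own.

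**Figure D2:**
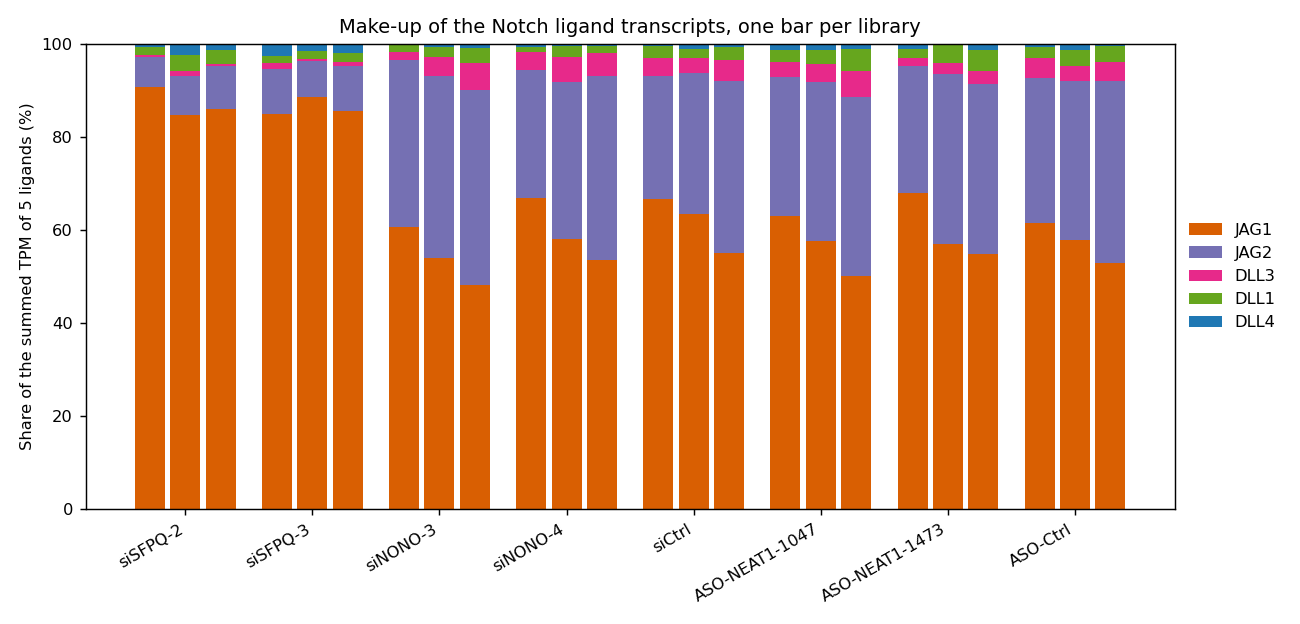
Share of each ligand in the summed TPM of the 5 Notch ligands (vertical axis, percent), 1 stacked bar per library, 3 per group. JAG1 takes 84.7 to 90.7% of the bar in the 6 siSFPQ libraries and 55.0 to 66.7% in the 3 siCtrl libraries.

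NOTCH1 had 88.2, 73.2 and 92.8 CPM in siSFPQ-2 and 82.6, 82.9 and 95.2 CPM in siSFPQ-3, against 42.6, 38.7 and 42.6 CPM in siCtrl. The groups did not overlap, and the siRNAs gave nearly the same level. NOTCH1 rose by 1.06 (SE 0.10, edgeR adjusted p = 1.61e-10), by 1.05 with siSFPQ-2 and by 1.07 with siSFPQ-3.

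NOTCH2 (chr1:119911553-120100779, minus strand) was the steadiest of the 10 genes, with 207 to 243 CPM in the 6 siSFPQ libraries, against 216 to 220.0 CPM in siCtrl. Its log2 fold change was 0.06 (95% interval -0.08 to 0.19, edgeR adjusted p = 0.438). NOTCH3 (chr19:15159038-15200995, minus strand) had 16.7, 9.15 and 14 CPM in siSFPQ-2 and 10.7, 11.4 and 10.7 CPM in siSFPQ-3, against 11.7, 12.2 and 12.7 CPM in siCtrl. Its siSFPQ-2 libraries lay on both sides of siCtrl and its siSFPQ-3 libraries just below siCtrl, and the log2 fold change was 0.005 (95% interval -0.29 to 0.30, edgeR adjusted p = 0.976). The near-copies NOTCH2NLA, NOTCH2NLC and NOTCH2NLR held 139, 442 and 85 reads in all libraries, against 57216 for NOTCH2. How reads that match several copies were counted is not given, so their part in the NOTCH2 level cannot be told.

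Per length, NOTCH2 made up 58.5 ± 3.94% of the summed TPM of the 3 receptors in siSFPQ-2 and 58.3 ± 3.39% in siSFPQ-3, against 70.5 ± 0.711% in siCtrl. NOTCH1 made up 34.4 ± 2.91% and 35.8 ± 3.43% in siSFPQ-2 and siSFPQ-3, against 21.2 ± 0.78% in siCtrl. NOTCH2 thus remained the leading receptor transcript in each of these groups.

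HEY1 (chr8:79762371-79767857, minus strand), a repressor induced by active Notch, had 52.3, 46.0 and 40.0 CPM in siSFPQ-2 and 53.9, 50.8 and 53.0 CPM in siSFPQ-3, against 43.7, 29.7 and 26.8 CPM in siCtrl. The groups overlapped through siCtrl replicate 1 and siSFPQ-2 replicate 3, but within each replicate number siSFPQ-2 was above siCtrl. HEY1 rose by 0.56 (SE 0.17, edgeR adjusted p = 0.00474), a call that was lost without siCtrl replicate 3 (0.40, edgeR adjusted p = 0.0605). The call was kept in 16 of 17 alternative fits, and in 10 of 14 with siSFPQ-2 alone. With siSFPQ-2 alone, the log2 fold change of 0.47 (edgeR adjusted p = 0.0381) was not called without siCtrl replicate 2 (0.39, edgeR adjusted p = 0.134), siCtrl replicate 3 (0.31, edgeR adjusted p = 0.203), siSFPQ-2 replicate 1 (0.35, edgeR adjusted p = 0.177) or siSFPQ-2 replicate 2 (0.45, edgeR adjusted p = 0.0859). HEY1 was highest in replicate 1 in 8 of 8 groups, and JAG1 in 7 of 8.

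HES6 (chr2:238238267-238240662, minus strand), a HES-family factor that opposes HES1 and accompanies neurogenesis, had 1.28, 0.742 and 1.99 CPM in siSFPQ-2 and 1.79, 0.735 and 0.601 CPM in siSFPQ-3, against 2.59, 1.33 and 2.04 CPM in siCtrl. Its groups overlapped, and its log2 fold change of -0.69 was not called (SE 0.35, edgeR adjusted p = 0.0745). The value passed the threshold without siCtrl replicate 2 (-0.89, edgeR adjusted p = 0.0365), siSFPQ-2 replicate 3 (-0.92, edgeR adjusted p = 0.0321) or siSFPQ-3 replicate 1 (-1.02, edgeR adjusted p = 0.0141). With siSFPQ-3 alone, the log2 fold change of -0.93 was not called (edgeR adjusted p = 0.0529), but it was with upper quartile factors (-0.98, edgeR adjusted p = 0.0423), library totals (-0.98, edgeR adjusted p = 0.0416), no filter on low counts (-0.98, edgeR adjusted p = 0.0486) or the replicate block (-0.95, edgeR adjusted p = 0.0315), and without siCtrl replicate 2 (-1.13, edgeR adjusted p = 0.0275) or siSFPQ-3 replicate 1 (-1.57, edgeR adjusted p = 0.00766).

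Between siSFPQ-2 and siSFPQ-3 themselves edgeR and DESeq2 each called 0 of the 10 genes, and 0 had an unadjusted edgeR p under 0.05, beside 14.7% of all genes called. The 95% intervals of these differences ran from -0.14 to 0.17 for NOTCH2 but from -1.68 to 1.12 for DLL3, so for the scarce ligands a sizeable difference between the siRNAs was not detectable at this depth. Of the 10 genes, 5 had siSFPQ and siCtrl libraries that did not overlap (DLL3, DLL4, JAG1, JAG2 and NOTCH1), beside 56.5% of all genes tested. DLL4 passed the filter through siSFPQ libraries alone, so it lends no support to this count. Depth was also lower in the siSFPQ libraries, at 4243196 to 9747514 counts, against 9999025 to 13525528 in siCtrl, and mitochondrially encoded genes took 9.59 to 11.6% of counts in siSFPQ libraries, against 7.63 to 9.07% in siCtrl. The part of depth and mitochondrial share in these results was not tested.

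**Figure D3:**
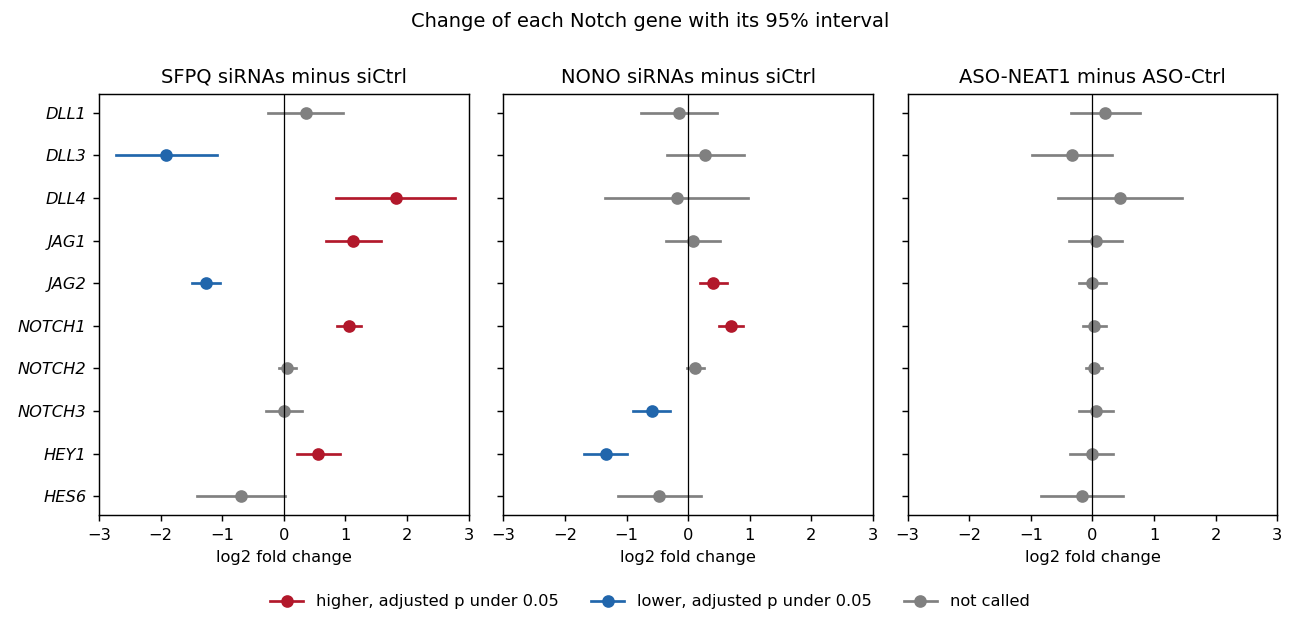
log2 fold change of each of the 10 genes (horizontal axes) with its 95% interval, for both SFPQ siRNAs minus siCtrl, both NONO siRNAs minus siCtrl and both ASO-NEAT1 groups minus ASO-Ctrl; red and blue mark called genes. JAG2 and HEY1 lie on opposite sides of 0 in the SFPQ and the NONO panel, and in the ASO-NEAT1 panel every interval crosses 0.

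After NONO knockdown JAG2 rose and the other 4 ligands were not called. NOTCH1 rose, NOTCH3 fell and HEY1 fell. Thus 2 of the 10 genes were called higher and 2 lower, beside 17.4% of all genes tested (7.47% higher, 9.96% lower), and the members' median log2 fold change was -0.03, beside 0.00 over all genes. Both SFPQ and NONO effects are measured against the same siCtrl libraries, so their values are set side by side and their likeness was not tested. The summed level of 6 fibroblast markers was 26.7 to 35.1 CPM in siNONO-3 and 35.3 to 54.8 CPM in siNONO-4, against 13.4 to 21.4 CPM in siCtrl, with 4, 5 and 4 of the 6 detected in these groups. The same sum was 24.7 to 33.3 CPM in ASO-Ctrl, 26.3 to 38.3 CPM in ASO-NEAT1-1047 and 16.2 to 34.1 CPM in ASO-NEAT1-1473. Of the 3 markers that passed the filter, COL1A2 rose by 1.97, COL1A1 rose by 0.83 and COL3A1, which passed through siSFPQ libraries alone, fell by 2.15. The part of these markers in the results was not tested.

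HEY1 had 12.0, 11.8 and 10.1 CPM in siNONO-3 and 19.3, 15.1 and 11.7 CPM in siNONO-4, against 43.7, 29.7 and 26.8 CPM in siCtrl. Every siNONO library was below every siCtrl library. HEY1 fell by 1.34 (SE 0.17, edgeR adjusted p = 7.35e-06), by 1.57 with siNONO-3 and by 1.11 with siNONO-4, the largest change of a member in this comparison.

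NOTCH1 had 90.7, 70.6 and 89.2 CPM in siNONO-3 and 57.6, 46.5 and 57.4 CPM in siNONO-4, against 42.6, 38.7 and 42.6 CPM in siCtrl. The siNONO-3 libraries stood well above the other 2 groups, and those of siNONO-4 were just above siCtrl. The other control, ASO-Ctrl, had 47.9 to 56.7 CPM, which overlapped siNONO-4. NOTCH1 rose by 0.70 (SE 0.10, edgeR adjusted p = 7.13e-06). With siNONO-4 alone, the log2 fold change of 0.38 (edgeR adjusted p = 0.021) missed the threshold without siCtrl replicate 2 (edgeR adjusted p = 0.0877), siNONO-4 replicate 1 (edgeR adjusted p = 0.0849) or siNONO-4 replicate 3 (edgeR adjusted p = 0.0956).

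NOTCH3 had 7.29, 4.88 and 6.05 CPM in siNONO-3 and 11.6, 9.21 and 11.3 CPM in siNONO-4, against 11.7, 12.2 and 12.7 CPM in siCtrl. It fell by 0.60 (SE 0.15, edgeR adjusted p = 0.00451), by 1.00 with siNONO-3, while siNONO-4 alone gave -0.19 and was not called (edgeR adjusted p = 0.523). The change over both siRNAs therefore rests mostly on siNONO-3.

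JAG2 had 40.1, 38.0 and 44.7 CPM in siNONO-3 and 28.5, 28.8 and 35.9 CPM in siNONO-4, against 25.7, 23.3 and 31.4 CPM in siCtrl. The siNONO-3 libraries were above siCtrl, and those of siNONO-4 overlapped it. JAG2 rose by 0.41 (SE 0.10, edgeR adjusted p = 0.00713), a call that was lost without siCtrl replicate 2 (0.32, edgeR adjusted p = 0.0637). With siNONO-3 alone it rose by 0.61, and with siNONO-4 alone the log2 fold change of 0.21 was not called (edgeR adjusted p = 0.292).

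DLL3 had 0.788, 1.59 and 2.51 CPM in siNONO-3 and 1.61, 1.82 and 1.84 CPM in siNONO-4, against 1.52, 1.02 and 1.6 CPM in siCtrl. The groups overlapped, and its log2 fold change was 0.28 (95% interval -0.34 to 0.90, edgeR adjusted p = 0.573). JAG1 had 70.8 to 101 CPM in the 6 siNONO libraries, against 67.9 to 93.9 CPM in siCtrl (log2 fold change 0.08, edgeR adjusted p = 0.837). DLL1, DLL4, NOTCH2 and HES6 had log2 fold changes of -0.14, -0.19, 0.12 and -0.47 and were not called.

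For NOTCH1, NOTCH3 and HEY1, 3 of the 10 genes, the CPM of siNONO and siCtrl libraries did not overlap, beside 15.7% of all genes tested. Each siRNA alone called 4 genes (siNONO-3, 19.9% of all genes) and 2 genes (siNONO-4, 11.0% of all genes). Between siNONO-3 and siNONO-4, NOTCH1 and JAG2 were higher and NOTCH3 was lower in siNONO-3, 3 of the 10 genes beside 10.0% of all genes tested (4.71% higher, 5.31% lower). HEY1 differed by -0.45 and was not called (edgeR adjusted p = 0.219), but with the replicate number as a block it was (-0.44, edgeR adjusted p = 0.0161), which makes 4 of the 10 genes beside 17.2% of all genes tested (8.38% higher, 8.84% lower). NONO itself stood at 69.1 CPM in siNONO-3 and 69.9 CPM in siNONO-4.

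Set directly against each other, siSFPQ and siNONO libraries differed in 7 of the 10 genes: DLL4, JAG1, NOTCH1, NOTCH3 and HEY1 were higher and DLL3 and JAG2 lower after SFPQ knockdown, beside 75.4% of all genes tested (37.0% higher, 38.4% lower). The DLL4 call lends no support to this count, for the filter's sake. In this contrast siCtrl cancels. HEY1 had 40.0 to 53.9 CPM in siSFPQ libraries and 10.1 to 19.3 CPM in siNONO libraries, a log2 difference of 1.90 (SE 0.15, edgeR adjusted p = 5.12e-11). JAG2 had 9.40 to 12.1 CPM in siSFPQ libraries and 28.5 to 44.7 CPM in siNONO libraries, a log2 difference of -1.67 (SE 0.10, edgeR adjusted p = 5.76e-15).

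DLL3 differed by -2.19 (SE 0.35, edgeR adjusted p = 1.69e-06) and DLL4 by 2.01 (SE 0.40, edgeR adjusted p = 4.67e-05) between SFPQ and NONO knockdown. JAG1 differed by 1.05, NOTCH3 by 0.60 and NOTCH1 by 0.36 in the same contrast. For NOTCH3, siNONO-4 libraries (9.2 to 11.6 CPM) lay within the range of the siSFPQ libraries (9.2 to 16.7 CPM). Those of siNONO-3 lay lower, at 4.9 to 7.3 CPM. For NOTCH1, siSFPQ and siNONO-3 libraries lay in the same range, 73.2 to 95.2 and 70.6 to 90.7 CPM, and those of siNONO-4 lay lower. DLL3, DLL4, JAG1, JAG2 and HEY1 did not overlap between siSFPQ and siNONO libraries, beside 48.8% of all genes tested. DLL4, which passed the filter through siSFPQ libraries alone, adds no support here. DLL1, at 0.50, was not called (edgeR adjusted p = 0.0774) but passed the threshold without siNONO-3 replicate 3 (0.63, edgeR adjusted p = 0.0342) or siNONO-4 replicate 2 (0.65, edgeR adjusted p = 0.0337).

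In the libraries labelled ASO-NEAT1, 0 of the 10 genes were called against ASO-Ctrl, beside 0.0% of all genes tested. In edgeR 353 of 15869 genes had an unadjusted p under 0.05, 0 of the 10 members among them, and DESeq2 called 0 members. The edgeR fit leaves out the replicate numbers, by which the ASO libraries were taken as paired. With the numbers as a block 0 members were called, and the share of all genes called was not computed. The log2 fold changes were small for the abundant genes: 0.05 for JAG1 (95% interval -0.38 to 0.49), 0.00 for JAG2 (-0.21 to 0.21), 0.03 for NOTCH1 (-0.16 to 0.22), 0.03 for NOTCH2 (-0.11 to 0.16) and -0.01 for HEY1 (-0.37 to 0.34). For the scarce ligands the intervals were wide, at -0.33 for DLL3 (-0.98 to 0.31) and 0.45 for DLL4 (-0.56 to 1.46). No member had ASO-NEAT1 libraries clear of ASO-Ctrl, beside 1.78% of all genes tested.

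DLL3 had 1.13, 1.25 and 1.70 CPM in ASO-NEAT1-1047 and 0.646, 0.811 and 0.914 CPM in ASO-NEAT1-1473, against 1.74, 1.01 and 1.22 CPM in ASO-Ctrl. The ASO-NEAT1-1473 libraries were all below those of ASO-NEAT1-1047 and ASO-Ctrl, yet the difference between the ASOs, 0.75, was not called (95% interval -0.03 to 1.53, edgeR adjusted p = 1). Between the ASOs edgeR and DESeq2 each called 0 members, and 0 had an unadjusted edgeR p under 0.05, beside 0.0% of all genes called. HEY1 had 25.6, 19.5 and 16.5 CPM in ASO-NEAT1-1047 and 29, 20.8 and 21.3 CPM in ASO-NEAT1-1473, against 26.9, 21.1 and 18.6 CPM in ASO-Ctrl, and the groups overlapped throughout. NEAT1 itself was not called lower in these libraries.

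Against these small effects, the change of each gene after SFPQ knockdown differed from its change in the ASO-NEAT1 libraries, each against its own control, for 5 of the 10 genes, 3 higher and 2 lower, beside 58.0% of all genes tested (27.2% higher, 30.8% lower). NOTCH1 (1.03, edgeR adjusted p = 1.89e-07), JAG1 (1.07, edgeR adjusted p = 0.00416) and HEY1 (0.57, edgeR adjusted p = 0.0424) had the higher SFPQ effect, and JAG2 (-1.26, edgeR adjusted p = 9.09e-08) and DLL3 (-1.57, edgeR adjusted p = 0.00948) the lower. The HEY1 call was lost, with edgeR adjusted p of 0.0547 to 0.175, when any 1 of 13 libraries was left out: siCtrl replicate 2 or 3, siSFPQ-2 replicate 1 or 2, siSFPQ-3 replicate 1, 2 or 3, ASO-Ctrl replicate 1 or 2, ASO-NEAT1-1047 replicate 2 or 3, or ASO-NEAT1-1473 replicate 2 or 3. Between the controls, ASO-Ctrl minus siCtrl, edgeR and DESeq2 each called 0 members, beside 0.454% of all genes called by edgeR. An unadjusted edgeR p under 0.05 was found for 2 members. The share of all genes at that looser threshold was not computed, so 0.454% is no measure for these 2. HEY1 had the largest difference, -0.59 (95% interval -0.99 to -0.19, edgeR adjusted p = 0.301), and was called with the replicate block (-0.58, edgeR adjusted p = 0.00101). That block takes equal numbers in the siRNA and ASO arms as paired, which was not checked. NOTCH1 was the other of the 2, at 0.31 (95% interval 0.09 to 0.53, edgeR adjusted p = 0.343), beside 0.38 for siNONO-4 against siCtrl.

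In the order of the 8 group means HEY1 ran from 52.6 CPM in siSFPQ-3 and 46.1 CPM in siSFPQ-2 through 33.4 CPM in siCtrl and 20.5 to 23.7 CPM in the ASO groups to 15.4 CPM in siNONO-4 and 11.3 CPM in siNONO-3. Each neighbouring pair in that order overlapped in its libraries. NOTCH1 ran from 86.9 CPM in siSFPQ-3, 84.7 CPM in siSFPQ-2 and 83.5 CPM in siNONO-3, which overlapped, to a lower set of 50.2 to 54.6 CPM in siNONO-4 and the ASO groups and to 41.3 CPM in siCtrl, with gaps between these 3 sets. DLL3 was highest in siNONO-4 at 1.76 CPM and lowest in siSFPQ-2 at 0.355 CPM, and ASO-NEAT1-1473, at 0.79 CPM, lay apart from its neighbours in that order but overlapped siNONO-3. NOTCH2 overlapped between all neighbours, from 218 CPM in siCtrl to 241 CPM in siNONO-3.

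The genes whose 8 group means lay closest to those of DLL3, by the root mean square distance of centred log2 means over 9869 genes of at least 5 CPM in a group, were CCR7 (0.088), DUS1L (0.127), ALYREF (0.139), URB2 (0.149) and AGO2 (0.158). CCR7, a chemokine receptor of lymphocytes, averaged 19.1 and 21.5 CPM in siSFPQ-2 and siSFPQ-3, against 42.7 CPM in siCtrl, and 35.8 CPM in ASO-NEAT1-1473, against 41.8 CPM in ASO-Ctrl. ALYREF is an mRNA export factor and AGO2 the effector protein of microRNA silencing. With a pseudocount of 0.5 CPM the scarce DLL3 has a flattened pattern, and all genes share the same 24 libraries, so this likeness is a description over 8 means. Among the members themselves, JAG2 was nearest to DLL3 (0.268) and JAG1 to DLL4 (0.274).

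Beyond the members, 7 lists with 61 genes of the pathway were followed, of which 55 passed the filter on low counts. After SFPQ knockdown 27 were higher and 15 lower, with a median log2 fold change of 0.30, beside -0.02 over all genes tested, and after NONO knockdown 5 were higher and 4 lower, with a median of 0.02, beside 17.4% of all genes tested (7.47% higher, 9.96% lower). With the replicate block 8 were higher and 7 lower after NONO knockdown, beside 26.9% of all genes tested (12.0% higher, 14.8% lower). MFNG and APH1B passed the filter through the 6 siSFPQ libraries alone, in which they were high, so their calls lend no support to the counts of their lists or of all 55 genes. In the libraries labelled ASO-NEAT1 edgeR and DESeq2 each called 0 of the 55, and PSEN2, CIR1 and RFNG had an unadjusted p under 0.05. With SFPQ knockdown calling 70.4% of all genes (34.7% higher, 35.8% lower), these counts describe the lists and single out none of them.

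Among enzymes that glycosylate Notch receptors, 4 of 8 rose and 2 fell after SFPQ knockdown, beside 34.7% and 35.8% of all genes tested. The 4 include MFNG, which passed the filter through siSFPQ libraries alone. The fringe enzymes MFNG and LFNG, which alter the ligand preference of receptors, rose by 3.81 (SE 0.64) and 1.54 (SE 0.34), whereas POFUT1, which adds the O-fucose that fringe enzymes extend, fell by 2.04 (SE 0.11, edgeR adjusted p = 1.47e-15) and the xylosyltransferase gene XXYLT1 by 1.95. POFUT1 averaged 15.3 ± 1.87 and 14.3 ± 2.97 CPM in siSFPQ-2 and siSFPQ-3, against 61.1 ± 5.53 CPM in siCtrl. MFNG was scarce, with 38 and 44 reads in siSFPQ-2 and siSFPQ-3, against 4 in siCtrl. After NONO knockdown 1 of these 8 genes rose and 0 fell, beside 7.47% and 9.96% of all genes tested.

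In the SFPQ comparison 34.7% of all genes tested rose and 35.8% fell, and the counts in this paragraph stand beside these shares. Of 9 genes for receptor cleavage, 5 rose and 2 fell after SFPQ knockdown. The 5 include APH1B, which passed the filter through siSFPQ libraries alone. APH1B, a gamma-secretase subunit, rose by 3.34 (SE 0.45) on 49 and 79 reads in siSFPQ-2 and siSFPQ-3, against 9 in siCtrl, while its paralog APH1A fell by 0.40 and FURIN, which cuts the receptor during maturation, rose by 1.22. Of 5 measured genes for ligand uptake, 2 rose (NEURL1B by 1.6, EPN2 by 0.43) and 1 fell, the ubiquitin ligase gene MIB1 by 0.33. Of 9 measured genes for receptor trafficking and turnover, 6 rose and 2 fell: the kinase gene AAK1 rose by 1.32 and DTX3L by 1.01, and NUMB and NUMBL, which restrain Notch, fell by 0.60 and 0.58. DLK2, a non-canonical ligand, fell by 1.71 and was the 1 called gene of 3 measured other ligands and receptors.

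In the nuclear complex around RBPJ, 9 of 15 genes rose and 4 fell after SFPQ knockdown, beside 34.7% and 35.8% of all genes tested. MAML3, a co-activator of the Mastermind family, fell by 3.20 (SE 0.16, edgeR adjusted p = 3.48e-16), with 4.38 ± 0.92 and 3.46 ± 0.647 CPM in siSFPQ-2 and siSFPQ-3, against 35 ± 9.08 CPM in siCtrl. L3MBTL3, an RBPJ partner in repression, rose by 1.87 and the acetyltransferase gene KAT2B by 0.98. After NONO knockdown 2 of the 15 rose and 1 fell, beside 7.47% and 9.96% of all genes tested. With the replicate block 2 rose and 3 fell, beside 12.0% and 14.8%. Without the block KAT2B stood at 0.72 and MAML3 at -0.84 (edgeR adjusted p = 4.41e-05 for MAML3). MAML3 averaged 15.3 ± 0.637 and 25.1 ± 2.61 CPM in siNONO-3 and siNONO-4, against the same siCtrl value.

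Notch target genes other than HEY1 did not move as 1 group after SFPQ knockdown. Of 6 measured, HES1, the classical target and a repressor of neurogenesis, rose by 0.77 (SE 0.15, edgeR adjusted p = 4.89e-05), while MYC fell by 1.41 and NRARP, a feedback inhibitor of Notch, by 0.92. CCND1, the other gene that fell (by 0.19, edgeR adjusted p = 0.0458), is named after its value was seen. MYC averaged 25.6 ± 0.417 and 37.7 ± 7.08 CPM in siSFPQ-2 and siSFPQ-3, against 82.6 ± 6.47 CPM in siCtrl. HES5 had 0 reads in all libraries, and HEYL and SOX9 did not pass the filter either. After NONO knockdown, in which HEY1 fell, edgeR and DESeq2 each called 0 of the 6 other targets, and NRARP had an unadjusted p under 0.05. Of all genes tested, edgeR called 17.4% in this comparison. With the replicate block NRARP was called (0.23, edgeR adjusted p = 0.0485), against 0.23 (edgeR adjusted p = 0.104) without it.

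Of 8 lineage factors that act around Notch, 3 were measured. NEUROD1 fell by 1.36 after SFPQ knockdown, with 2.40 ± 0.582 and 1.36 ± 0.766 CPM in siSFPQ-2 and siSFPQ-3, against 4.61 ± 0.077 CPM in siCtrl, and rose by 1.19 after NONO knockdown, with 9.91 ± 2.22 and 11.2 ± 4.57 CPM in siNONO-3 and siNONO-4. REST, a repressor of neuronal genes, rose by 0.85 after SFPQ knockdown and by 0.31 after NONO knockdown, and YAP1 fell by 0.29 after SFPQ knockdown. Of the other neuroendocrine markers, SYP rose by 1.52 after SFPQ knockdown and fell by 0.73 after NONO knockdown. CHGB, a granin of secretory granules, was not called after SFPQ knockdown (0.29, edgeR adjusted p = 0.337), although it rose by 0.91 with siSFPQ-2 alone, and it fell by 1.62 after NONO knockdown. The summed level of the 8 neuroendocrine markers was 65.6 to 79.3 CPM in siSFPQ-2 and 36.6 to 45.7 CPM in siSFPQ-3, against 21.7 to 28.5 CPM in siCtrl, with 5, 4 and 5 of the 8 detected in these groups, and it was 17.4 to 30.3 CPM in the siNONO libraries. Of 6 non-neuroendocrine markers that passed the filter, 4 were higher and 2 lower after SFPQ knockdown, with a median log2 fold change of 0.89, and 1 was higher and 0 lower after NONO knockdown, with a median of 0.09. Of all genes tested, 70.4% were called after SFPQ knockdown and 17.4% after NONO knockdown. CAV1, a protein of membrane caveolae, rose by 4.63 after SFPQ knockdown, the intermediate filament gene VIM by 1.96 and the receptor kinase gene AXL by 0.93. The summed level of the 7 markers in this list was 637 to 732 CPM in siSFPQ-2 and 761 to 808 CPM in siSFPQ-3, against 572 to 658 CPM in siCtrl, and all 7, 7 and 6 of them were detected in these groups. The part of either marker list in the member results was not tested. MAML3, DLK2, EPN2, DTX3L, REST, APH1A, MYC, ALYREF, NRARP, YAP1, L3MBTL3 and NEURL1B share exon bases with a gene on the other strand that had reads, and NEUROD1 (with CERKL) and AGO2 with a gene on their own strand, so their values are uncertain in part.

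**Figure D4:**
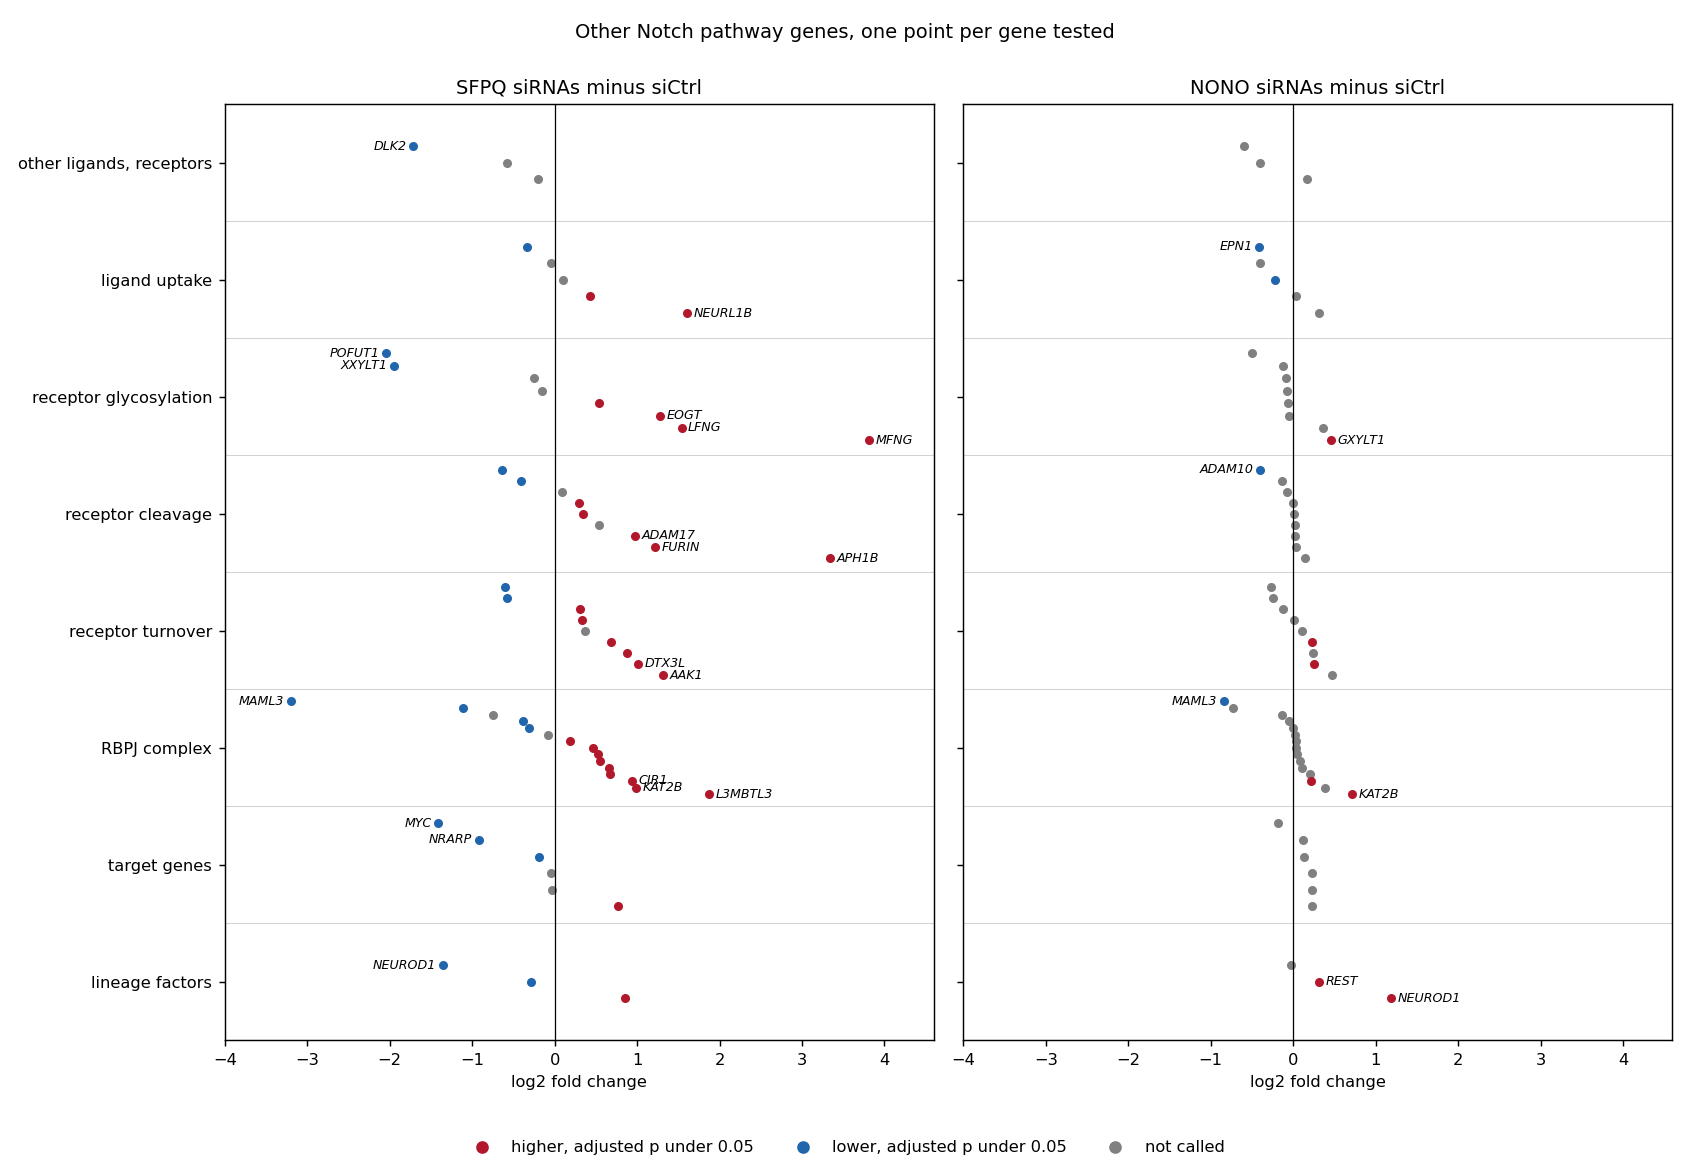
log2 fold change (horizontal axes) of the other Notch pathway genes and lineage factors that passed the filter on low counts, 1 point per gene, in rows by role, for both SFPQ siRNAs minus siCtrl and both NONO siRNAs minus siCtrl; red and blue mark called genes. After SFPQ knockdown points spread from -3.20 (MAML3) to 3.81 (MFNG), and after NONO knockdown most points are grey and near 0.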

How the data were processed

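Poly(A)-selected RNA of SBC-3 cells was sequenced in 24 libraries, 3 in each of 8 groups taken from the labels. The authors deposited raw read counts per gene, with gene coordinates on hg38. Per the submitters' processing notes, cutadapt 4.2, STAR 2.7.5a, featureCounts of Subread 2.0.3 and DESeq2 1.38.1 were used; for strandedness, multiply mapped reads and gene models, settings are not given in the sources used.

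From these counts, edgeR 4.0.16 in R 4.3.3 (TMM factors, expression filter by group with a minimum count of 10, robust quasi-likelihood fit) was fitted to all 24 libraries at once, with 1 coefficient per group. Both reagents of a target were averaged and set against the control of their arm. Adjusted p-values are Benjamini-Hochberg over 15869 genes of 60605, called under 0.05. The script was tested on simulated data. TPM used the exon length in the deposited annotation, and symbols were matched for 60463 genes. Replicate numbers were checked for pairing by the correlation of deviations from group means, within each arm and not between the arms. Among the ASO groups 9 of 9 same-number pairs passed 0.1 (0.179 to 0.487). Among siCtrl, siSFPQ-2, siNONO-3 and siNONO-4, 18 of 18 did (0.107 to 0.376), so the numbers were taken to pair these libraries. Pairs of unlike number were not computed for comparison. Pairs with siSFPQ-3 passed 0.1 for replicate 3 (0.128 to 0.322) but not for replicates 1 and 2 (-0.043 to 0.096). Counting error limits the ligands with few reads. Alternatives were other scalings, DESeq2 1.42.0, no filter, a replicate block, 1 arm only, no robust estimation and leaving out each library.

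The members and the gene lists were chosen with earlier results of these data known. Other genes named are, per list and target, up to 2 risen and 2 fallen genes of largest change called in the mean and with each reagent, and the 5 genes nearest to DLL3 by pattern, leaving out clone, LINC and pseudogene symbols. Some genes that this rule or the lists hold are not reported here by name.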

Additional observations from a re-analysis of the deposited data

Results flagged for a closer look

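By the edgeR test of the difference itself, the effects of siNONO-3 and siNONO-4 differed for 3 of the 10 genes. The share over all genes tested was 10.0%. NOTCH1 was higher with siNONO-3 by 0.633 on the log2 scale (SE 0.106, edgeR adjusted p = 0.000171), with 70.6 to 90.7 CPM in siNONO-3 and 46.5 to 57.6 CPM in siNONO-4. JAG2 was higher with siNONO-3 by 0.398 (SE 0.119, edgeR adjusted p = 0.0308), with 38.0 to 44.7 CPM in siNONO-3 and 28.5 to 35.9 CPM in siNONO-4. This JAG2 call was kept in 8 of 14 alternative fits. NOTCH3 was lower with siNONO-3, at -0.812 (SE 0.18, edgeR adjusted p = 0.00328), with 4.88 to 7.29 CPM in siNONO-3 and 9.21 to 11.6 CPM in siNONO-4. The libraries of the siRNAs did not overlap for any of these 3 genes. The genes were called from the same libraries, so the lack of overlap adds no support to the calls. With the replicate block HEY1 was called as well, lower with siNONO-3 (-0.44, edgeR adjusted p = 0.0161), with 10.1 to 12.0 CPM in siNONO-3 and 11.7 to 19.3 CPM in siNONO-4, which overlap. In that fit 17.2% of all genes tested were called.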

How the results depend on the processing

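Of 271 alternative counts of called members, 266 stayed within 1.5 times the reported count. With siNONO-4 alone the count was 1 without siCtrl replicate 2, siNONO-4 replicate 1 or siNONO-4 replicate 3. Between ASO-Ctrl and siCtrl it was 1, HEY1, with no filter on low counts (edgeR adjusted p = 0.00302) or with the replicate block (edgeR adjusted p = 0.00101). The block takes equal numbers in both arms as paired, which was not checked, and the cause of either call was not tested. Leaving out single libraries gave 5 to 7 called members for SFPQ knockdown, 3 to 4 for NONO knockdown, 7 to 8 for SFPQ against NONO, 4 to 5 for SFPQ against NEAT1 effects, 2 to 3 between the NONO siRNAs, 4 to 6 for siSFPQ-2, 6 to 7 for siSFPQ-3, 1 to 2 for siNONO-4 and 16 to 19 summed over single reagents. Of 2376 alternative member fold changes 32 lost and 16 gained a call. None changed sign where it was called in either fit; uncalled ones could, and 5 did so by more than their SE, such as DLL3 with siNONO-3 (-0.24 without siNONO-3 replicate 3). JAG2 between the NONO siRNAs lost its call with no filter (edgeR adjusted p = 0.0514), with the siRNA arm alone (0.0553), and without siNONO-3 replicate 1 (0.0515) or 3 (0.158) or siNONO-4 replicate 1 (0.144) or 2 (0.12). NOTCH2 was called between SFPQ and NONO with library totals (-0.12, edgeR adjusted p = 0.0443).

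With the replicate block the count of called members was 6 for SFPQ knockdown, 4 for NONO knockdown and 0 for ASO-NEAT1; HEY1 between the NONO siRNAs (-0.44, edgeR adjusted p = 0.0161) and HES6 with siSFPQ-3 (-0.95, edgeR adjusted p = 0.0315) gained a call, and beside HEY1 between the controls no other member call changed. For siSFPQ-3 the block fits in part, since 4 of 12 same-number pairs with it correlated above 0.1, all of replicate 3. Same-number pairs of its replicates 1 and 2 correlated at -0.043 to 0.096, so pairing by number was not shown for them. An added fit of the ASO libraries alone with the block, chosen after seeing the data, called 0 members. DLL3 and DLL4 are limited by depth.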
